A study of Mus musculus with 9 samples.

Results

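The genes described here are the 13 protein-coding genes of the mouse mitochondrial genome and 20 nuclear genes whose products copy that genome, transcribe it, stabilise its RNA or regulate those functions. They were chosen by gene symbol, from known function. All 33 were matched by identifier among the 34866 genes of the deposited tables. RNA sequencing had measured them in primary macrophages of the mouse, the scavenging cells of innate immunity, kept in culture in 3 groups of 3 biological replicates. The standard group stayed in standard oxygen for 7 days, the acute hypoxia group spent 3 h in 1% oxygen after standard oxygen, and the chronic hypoxia group stayed in 1% oxygen for 7 days. Every group was grown in vitro in alpha-MEM with serum and L929-conditioned medium, which supports macrophage growth, and the labels name no genotype or strain. The digits in the sample descriptions, here called the sample code (X, Y or Z), occurred once in each group, and their meaning is not stated.

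Mitochondria keep a small circular genome of their own, present in many copies per cell and almost free of introns and spacers. It encodes core subunits of respiratory complexes I, III, IV and V, and each strand is transcribed as a long precursor that is cut into single RNAs. All of its polymerases, transcription factors and RNA-binding proteins come from nuclear genes. In macrophages, respiration and glycolysis both supply energy, and the balance between them is known to shift with activation and with oxygen.

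Expression is given in TPM, which corrects a gene's reads for its length and scales each library to 1 common sum, so a value is a share. Because TPM keeps no depth, counting error is unknown. An SD given here is the spread over the 3 samples of a group, and an SE is that of the fit of the groups compared. The number of genes at 1 TPM or more ran from 10724 to 11208 per library. All 7 macrophage markers checked were at 1 TPM or more in all 9 samples, and every dendritic cell, fibroblast, B cell, T cell and mast cell marker checked was under 1 TPM. Samples of the same code deviated together from their group means (r across genes 0.378 to 0.633 in 9 of 9 pairs), so the code was also used as a block, which compares samples within a code. The 3 libraries of code Z stood apart from the other libraries, and results that depend on them are given with and without them. In bulk RNA, a smaller number of cells rich in mitochondrial RNA and less mitochondrial RNA in each cell cannot be told apart.

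Part of the mitochondrial genome also lies in the nuclear genome, as insertions. On GRCm38 chromosome 1, 7 listed pseudogenes lie in a row on the minus strand, from chr1:24611535-24612410 (Gm28439, a copy of mt-Nd4) to chr1:24615706-24616197 (Gm29216, a copy of the end of mt-Co1). The first 75 bases of each copy are shown for the 2 pairs in which the tables divide the signal between genome and copy. Taken by itself, a read of 75 bases from these stretches can be placed only by the bases in capitals, where the sequences differ. Reads were paired, so a mate that lies outside the copy could also place a read. The genes are mt-Nd3 (chrM:9459-9806, plus strand) with Gm28438 (chr1:24612775-24613119), and mt-Co1 (chrM:5328-6872, plus strand) with Gm29216, whose alignment starts at base 1054 of mt-Co1. Sequences are from the GENCODE M21 transcripts of GRCm38.
mt-Nd3: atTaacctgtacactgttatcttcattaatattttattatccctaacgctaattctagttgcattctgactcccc
Gm28438: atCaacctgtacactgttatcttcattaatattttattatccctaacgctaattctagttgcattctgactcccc
mt-Co1: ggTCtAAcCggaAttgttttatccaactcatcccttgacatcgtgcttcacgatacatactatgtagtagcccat
Gm29216: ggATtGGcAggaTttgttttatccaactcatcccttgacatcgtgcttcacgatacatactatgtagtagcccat

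Counted from 1 at the first base of the mitochondrial gene, Gm28438 differed from mt-Nd3 at T3C alone over 345 bases. Gm29216 differed from mt-Co1 at T1056A, C1057T, A1059G, A1060G, C1062A and A1066T, and at no other of 492 bases. The other 5 copies, of mt-Nd4, mt-Nd4l, mt-Co2, mt-Co3 and mt-Atp6, had no differing base over their whole length. The start of mt-Atp6 (chrM:7927-8607), shown because its copy Gm10925 (chr1:24613974-24614651) took signal in 1 library, is the same in both.
mt-Atp6 and Gm10925: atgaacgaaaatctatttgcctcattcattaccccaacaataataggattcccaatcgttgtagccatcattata

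The mitochondrial mRNAs made up a smaller part of the transcripts after 7 days in 1% oxygen. Together the 13 genes held 5.15%, 4.41% and 5.69% of TPM in standard oxygen (codes X, Y and Z). They held 5.34%, 4.53% and 4.85% in acute hypoxia, and 2.98%, 2.61% and 3.78% in chronic hypoxia. All 3 chronic libraries lay below all 6 others, while acute and standard libraries overlapped. The group means were 5.08% ± 0.643, 4.91% ± 0.408 and 3.12% ± 0.600 (SD, n = 3). With the TPM of the nuclear copies added to the sum as listed, they were 5.99% ± 0.788, 5.76% ± 0.525 and 3.66% ± 0.631 (SD, n = 3). Where a copy is added to its single gene below, its signal is first scaled by length, which was not done for this sum. No test was made of this sum, since the genes were chosen with earlier results known. Without the code Z libraries the chronic mean was lower than the standard mean by a difference of -1.98 percentage points, beside -1.96 with them.

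**Figure D1:**
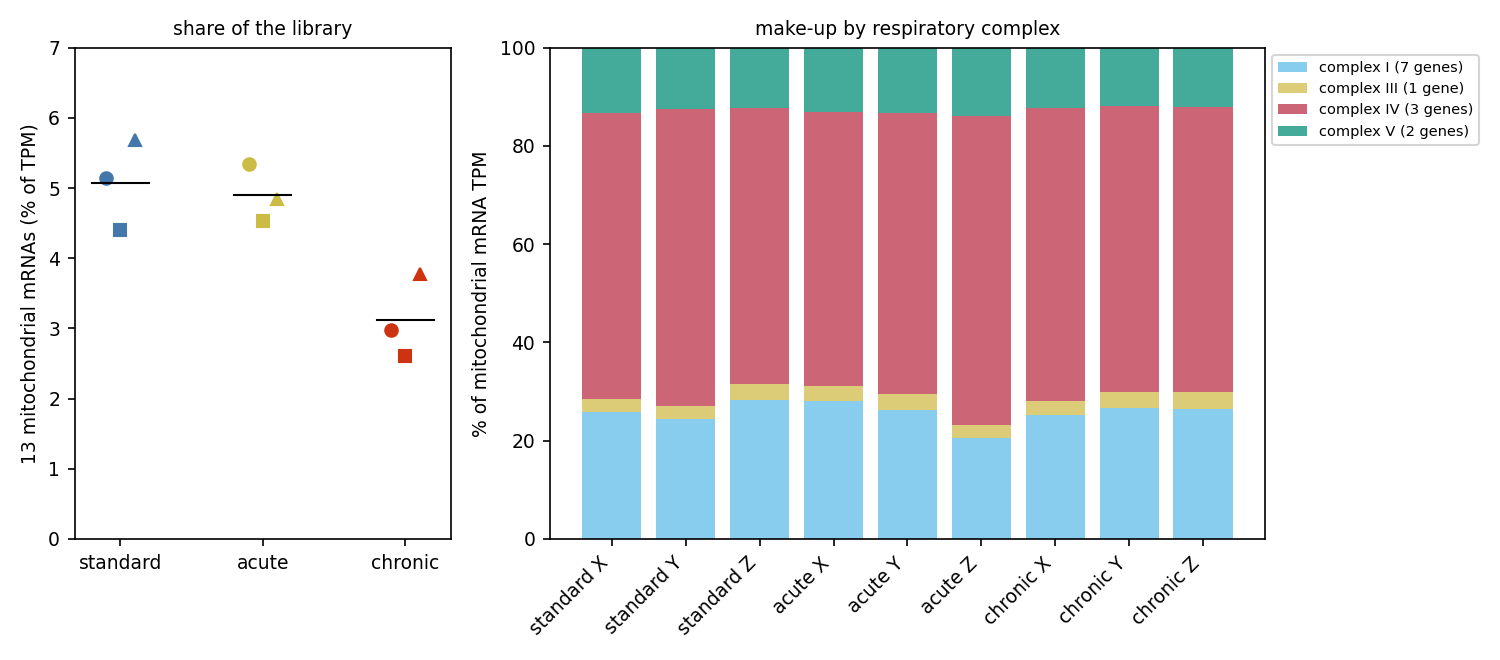
Left, summed TPM of the 13 mitochondrial mRNAs as % of the library, 1 point per sample (blue standard, yellow acute, red chronic; circle code X, square Y, triangle Z), with the group mean as a line. Right, the make-up of that sum by respiratory complex in each sample: the chronic samples have the lowest shares on the left (2.61% to 3.78%), while complex I stands out in 1 bar on the right, acute code Z, at 20.6%.

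The make-up of the mitochondrial mRNA pool by complex had overlapping values in standard and chronic samples for each complex but V. Complex I mRNAs held 26.2% ± 1.96 of the pool in standard oxygen, 25.0% ± 3.88 in acute and 26.1% ± 0.805 in chronic hypoxia (SD, n = 3). Complex IV mRNAs held 58.3% ± 2.16, 58.7% ± 3.68 and 58.7% ± 0.798 in the same order (SD, n = 3). Complex V mRNAs held 12.7% ± 0.513, 13.4% ± 0.512 and 12.0% ± 0.241 (SD, n = 3). For mt-Cytb, the single complex III gene, the values were 2.83% ± 0.387, 2.93% ± 0.318 and 3.15% ± 0.230 (SD, n = 3). In 2 genes, mt-Co3 and mt-Nd2, the share of the pool in every chronic library lay above that in all others. mt-Co3 held 9.86% ± 0.435 in standard oxygen, 9.36% ± 0.136 in acute and 11.5% ± 0.815 in chronic hypoxia (SD, n = 3), and mt-Nd2 held 2.16% ± 0.0523, 1.97% ± 0.342 and 2.35% ± 0.0452 (SD, n = 3). These genes were singled out after their values were seen.

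**Figure D2:**
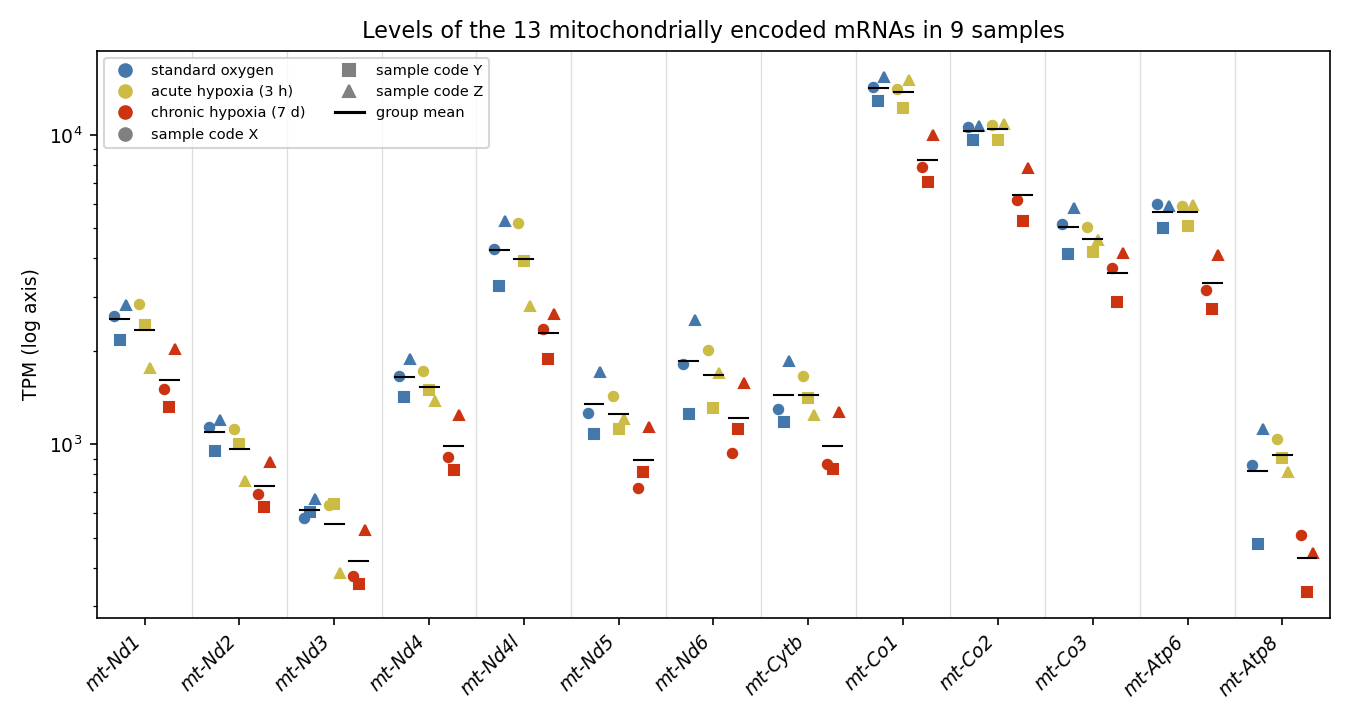
TPM of each mitochondrial mRNA on a log axis, 1 point per sample, coloured by oxygen group and shaped by sample code, with group means as lines. Chronic points lie lowest for most genes, as for mt-Co1 at 7049.5 to 10028 TPM beside 12893 to 15444 TPM in standard oxygen, and the acute code Z triangle lies below all standard and other acute points for mt-Nd1, mt-Nd2, mt-Nd3, mt-Nd4 and mt-Nd4l but not for mt-Nd5, mt-Nd6, mt-Co1 or mt-Co2.

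Chronic hypoxia was compared with standard oxygen to ask which transcripts differ after 7 days of low oxygen. All 13 mitochondrial mRNAs were lower in chronic hypoxia, by log2 fold changes of -0.49 (mt-Co3) to -0.88 (mt-Nd4l) on the log2(TPM + 1) scale. In limma without a block, none passed a Benjamini-Hochberg adjusted p of 0.05, nor did any nuclear member. Of all 11067 genes tested, 2.69% passed. Before adjustment, 11 mitochondrial and 2 nuclear members had p under 0.05 in that fit, as did 2533 of the 11067 genes. Blocking by code, 14 members passed beside 18.4% of all genes. These were 12 of the 13 mitochondrial mRNAs, all lower (3.3% of all genes passed as lower), and 2 nuclear genes, both higher (15.1% of all genes). The exception was mt-Nd6, at an adjusted p of 0.0671 in limma with that block. The median log2 fold change of the 13 was -0.66, beside 0.16 over all genes tested.

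Each mitochondrial mRNA was lower in chronic hypoxia within all 3 pairs of the same code, as were 12.6% of all genes. For 8 of the 13, every chronic value lay below every standard value (5.39% of all genes). Among these 8 is mt-Nd3, whose groups overlapped once the signal of its nuclear copy was added. The median over all genes was itself above 0, and it depended on the scaling. It was 0.14 with TPM recomputed outside the mitochondrial genome. After median-of-ratios rescaling, which scales each library by its median ratio over genes above 0 in every library of the fit, that median was -0.0018 and the median of the 13 was -0.84. With rescaling and the code block together, 13 of 13 passed as lower in limma (5.92% of all genes). With the code block and all 9 samples in 1 fit, 9 of 13 passed as lower (4.61% of all genes) and 3 nuclear members, Tfam, Ssbp1 and Gabpa, as higher (21.7% of all genes). In that fit mt-Nd1, mt-Nd3, mt-Cytb and Tfb1m lost the call they had with the block and 6 samples, at limma adjusted p of 0.0566, 0.117, 0.0725 and 0.0724. Without the code Z libraries, and with no block, 10 of 13 passed as lower (4.07% of all genes), the others being mt-Nd6, mt-Co3 and mt-Atp8. The fits of 1 comparison use 6 or 4 libraries, so their spread rests on few samples.

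Markers of dividing cells moved with the chronic group and with code Z. The summed TPM of 4 of them (Mki67, Top2a, Ccnb1, Cdk1) ran from 69.1 to 125.0 in standard oxygen, from 83.0 to 154.2 in acute hypoxia and from 141 to 255 in chronic hypoxia, with code Z the highest sample of each group. Their part in the results was not tested.

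Complex IV, cytochrome c oxidase, passes electrons to oxygen at the end of the chain, and mt-Co1 and mt-Co2 had the highest levels of the 13 mRNAs. The catalytic subunit gene mt-Co1 was at 14261, 12893 and 15444 TPM in standard oxygen (codes X, Y, Z), at 14064, 12195 and 15060 TPM in acute hypoxia and at 7878, 7049.5 and 10028 TPM in chronic hypoxia. The chronic values lay below all others, and the standard and acute values overlapped. Its log2 fold change in chronic against standard was -0.78 ± 0.18 (SE), and limma adjusted p was 0.0794 unblocked and 0.0167 blocked by code. mt-Co2, which holds the copper site that receives electrons from cytochrome c, was at 10587, 9609.6 and 10666 TPM in standard oxygen, at 10744, 9643 and 10863 TPM in acute hypoxia and at 6166, 5277 and 7792 TPM in chronic hypoxia. Again no chronic value reached the other groups. It differed by a log2 fold change of -0.70 ± 0.18 (SE), and limma adjusted p was 0.0946 and 0.0247 for those fits. mt-Co3, a structural subunit, was at 5152, 4131 and 5805 TPM in standard oxygen, at 5051, 4173 and 4571 TPM in acute hypoxia and at 3714, 2896 and 4167 TPM in chronic hypoxia. Chronic code Z exceeded standard code Y by a little, so the groups overlapped. Its log2 fold change was -0.49 ± 0.20 (SE), and limma adjusted p was 0.209 unblocked and 0.0228 blocked.

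Complex V, the ATP synthase, has 2 mitochondrially encoded subunits in its membrane part, whose genes overlap on the genome. mt-Atp6, which lines the proton path, was at 5979, 5017 and 5884 TPM in standard oxygen, at 5890.1, 5082 and 5951 TPM in acute hypoxia and at 3148, 2744 and 4079 TPM in chronic hypoxia. All chronic values were below all others. Against standard, its log2 fold change was -0.77 ± 0.18 (SE), and limma adjusted p was 0.0796 unblocked and 0.0189 blocked by code. mt-Atp8, a small accessory subunit, was at 855, 477 and 1125 TPM in standard oxygen, at 1044, 903 and 817 TPM in acute hypoxia and at 509, 334 and 447 TPM in chronic hypoxia. Its low standard code Y value made standard and chronic overlap, while no acute value reached the chronic ones. The log2 fold change against standard was -0.86 ± 0.33 (SE), and limma adjusted p was 0.187 unblocked and 0.0322 blocked.

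Complex I, which takes electrons from NADH, has 7 of its core membrane subunits encoded here. mt-Nd1, at the site where quinone enters, was at 2608, 2182.5 and 2822 TPM in standard oxygen, at 2836, 2439 and 1761 TPM in acute hypoxia and at 1509.7, 1321.5 and 2029 TPM in chronic hypoxia. mt-Nd2, a proton-pumping subunit, was at 1139.5, 954 and 1199 TPM, at 1125, 1004 and 765 TPM and at 690.4, 626 and 878 TPM in the same order. In both genes the chronic values lay below all standard values, and acute code Z lay within the range of the chronic libraries. Their log2 fold changes in chronic against standard were -0.66 ± 0.19 and -0.59 ± 0.16 (SE), and limma adjusted p was 0.0181 and 0.0173 blocked by code, beside 0.117 and 0.108 unblocked.

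mt-Nd3, a small subunit near the junction of the complex's arms, was at 579, 603 and 665 TPM in standard oxygen, at 636, 642 and 384 TPM in acute hypoxia and at 376.5, 355 and 529 TPM in chronic hypoxia. Chronic and standard values did not overlap. The gene's log2 fold change was -0.57 ± 0.17 (SE), and limma adjusted p was 0.122 unblocked and 0.0273 blocked by code. With the signal of its nuclear copy added, that fold change shrank to -0.36, at limma adjusted p of 0.302 and 0.0374. Chronic and standard values then overlapped, with 941 TPM in chronic code Z beside 852 TPM in standard code Y. mt-Nd4, another pumping subunit, was at 1658, 1423 and 1882 TPM in standard oxygen, at 1724, 1497 and 1385 TPM in acute hypoxia and at 908, 826 and 1243 TPM in chronic hypoxia. mt-Nd4l, whose coding region overlaps the start of mt-Nd4, was at 4266, 3250.4 and 5267 TPM, at 5205, 3906 and 2791 TPM and at 2356, 1885 and 2630.5 TPM in the same order. No chronic value of either gene reached the other groups, with log2 fold changes of -0.75 ± 0.19 and -0.88 ± 0.22 (SE). In limma their adjusted p was 0.0927 and 0.0886 unblocked, then 0.0128 and 0.0103 blocked by code.

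mt-Nd5, the outermost pumping subunit, was at 1266, 1083 and 1717 TPM in standard oxygen, at 1433, 1124 and 1207 TPM in acute hypoxia and at 724, 812 and 1143 TPM in chronic hypoxia. mt-Nd6, the single protein-coding gene read from the opposite strand (chrM:13552-14070, minus strand), was at 1818, 1250.0 and 2527 TPM, at 2012, 1312 and 1703 TPM and at 939, 1124 and 1576.5 TPM in the same order. In both genes the code Z chronic library was above the code Y standard library, so the groups overlapped. The log2 fold changes against standard were -0.60 ± 0.23 for mt-Nd5 and -0.59 ± 0.30 for mt-Nd6 (SE), and limma adjusted p was 0.196 and 0.294 unblocked, then 0.0233 and 0.0671 blocked by code. Without the standard code Z library the fold change of mt-Nd6 was -0.35. Whether reads were counted by strand is not given in the sources used here, so reads of mt-Nd6 and reads from the other strand of that region cannot be told apart. In complex III, mt-Cytb (chrM:14145-15288) encodes cytochrome b, which passes electrons from ubiquinol. It was at 1303.5, 1184 and 1857 TPM in standard oxygen, at 1666, 1411 and 1243 TPM in acute hypoxia and at 865, 833 and 1269.9 TPM in chronic hypoxia. Only through code Z did chronic and standard values overlap, and the within-code differences were close together at -0.59, -0.51 and -0.55 on the log2 scale. Its fitted log2 fold change was -0.55 ± 0.23 (SE), and limma adjusted p was 0.226 unblocked and 0.0148 blocked by code. It was -0.36 when the standard code Z library was left out.

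Chronic hypoxia was also compared with acute hypoxia, which asks what differs between 7 days and 3 h of 1% oxygen. This comparison shares the chronic libraries with the one above. The 13 mitochondrial mRNAs were lower in chronic hypoxia, by log2 fold changes of -0.37 (mt-Co3) to -1.11 (mt-Atp8), with a median of -0.56 beside 0.14 over all genes tested. In limma without a block, 0 members had an adjusted p under 0.05 (0.695% of all genes did). Before adjustment, 8 mitochondrial and 2 nuclear members had p under 0.05, as did 2305 of all 11087 genes tested. Blocked by code, 5 members passed, beside 15.5% of all genes. Of these, 4 were mitochondrial mRNAs and lower (3.42% of all genes), namely mt-Co1, mt-Co2, mt-Atp6 and mt-Atp8, and 1 was nuclear and higher (12.1% of all genes). With the block and rescaling, mt-Nd4 joined them and 5 mitochondrial mRNAs passed as lower (5.06% of all genes). Without the code Z libraries and with no block, 11 passed as lower (3.48% of all genes), all but mt-Nd6 and mt-Co3. With the block and all 9 samples, 6 mitochondrial mRNAs passed as lower (4.56% of all genes), mt-Co3 and mt-Nd4 joining the 4 above, and Tfam alone as higher (17.7% of all genes). The share of the 13 in the library differed by -1.79 percentage points between the chronic and acute means, and by -2.14 without code Z.

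The largest of these differences was that of mt-Atp8, -1.11 ± 0.18 (SE), and limma adjusted p was 0.0599 unblocked and 0.0122 blocked by code. For mt-Atp6 the log2 fold change was -0.78 ± 0.18, for mt-Co1 -0.74 ± 0.19 and for mt-Co2 -0.72 ± 0.18 (SE). Blocked by code, limma adjusted p was 0.0164, 0.0172 and 0.0220 for them, and 0.0963, 0.110 and 0.110 unblocked. These 4 genes were lower in chronic hypoxia in every code, and no chronic value reached an acute one. The same held for mt-Nd4 (-0.65 ± 0.18), mt-Nd4l (-0.76 ± 0.25) and mt-Co3 (-0.37 ± 0.18, SE), so that 7 of 13 did not overlap (5.5% of all genes were lower without overlap). Blocked by code, limma adjusted p was 0.0571, 0.0746 and 0.0776. In 9 genes all 3 pairs of the same code were lower (12.9% of all genes). The exceptions were mt-Nd1, mt-Nd2, mt-Nd3 and mt-Cytb, which in code Z were higher in chronic than in acute hypoxia, by 0.20, 0.20, 0.46 and 0.03 on the log2 scale, and lower in codes X and Y, with differences of -0.68 or below. Their log2 fold changes were -0.53 ± 0.24, -0.40 ± 0.19, -0.38 ± 0.25 and -0.56 ± 0.20, those of mt-Nd5 and mt-Nd6 were -0.51 ± 0.20 and -0.48 ± 0.24 (SE), and none of these 6 passed in limma with or without the code block (adjusted p 0.104 to 0.355 with it). Without the code Z libraries, the first 4 of these were larger, at -0.90 (mt-Nd1), -0.69 (mt-Nd2), -0.80 (mt-Nd3) and -0.85 (mt-Cytb), and limma adjusted p was 0.0115, 0.0131, 0.00539 and 0.0100. Leaving out a single library moved 3 fold changes by more than 1.5 times. These were mt-Nd3 without acute code Z (-0.63), mt-Nd6 without chronic code X (-0.31) and mt-Co3 without chronic code Y (-0.22).

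Acute hypoxia was compared with standard oxygen to ask what responds within 3 h. No mitochondrial mRNA and no nuclear member passed in limma, either without a block (0 called, 0.0273% of all genes) or with the code block (0 called, 0.71% of all genes), and 0 of the 32 tested had an unadjusted p under 0.05 in either fit. Of all 10987 genes tested, 785 had such a p without the block and 1555 with it. The log2 fold changes of the 13 ran from -0.20 to 0.25, with a median of -0.10 beside 0.01 over all genes. No mitochondrial mRNA lay below (4.85% of all genes did) or above all standard values. For mt-Co1, mt-Co2 and mt-Atp6 the within-code differences were no larger than 0.08 on the log2 scale in any of the 3 pairs. For mt-Atp6 in code Z this depends on the copy. Standard and acute were at 5884 and 5951 TPM without the copy's signal, and at 6352 and 5954 TPM with it. In mt-Cytb, mt-Atp8 and all complex I genes but mt-Nd2, acute was lower than standard in the code Z pair and higher in both other pairs. In code Z, mt-Nd4l differed by -0.92, mt-Nd3 by -0.79, mt-Nd1 by -0.68, mt-Nd2 by -0.65, mt-Cytb by -0.58, mt-Nd6 by -0.57, mt-Nd5 by -0.51 and mt-Nd4 by -0.44. In codes X and Y these 8 genes differed by -0.02 (mt-Nd2, code X) to 0.35. For mt-Atp8 the difference was -0.46 in code Z beside 0.29 and 0.92. Without the code Z libraries the direction of most fold changes turned. Then 10 of the 13 were positive, with a median of 0.11 beside 0.02 over all genes and a range of -0.05 (mt-Co1) to 0.60 (mt-Atp8). The share of the 13 in the library differed between acute and standard means by -0.171 percentage points with code Z and by 0.162 without it. None of the 13 passed in limma without code Z (adjusted p 0.217 or more).

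**Figure D3:**
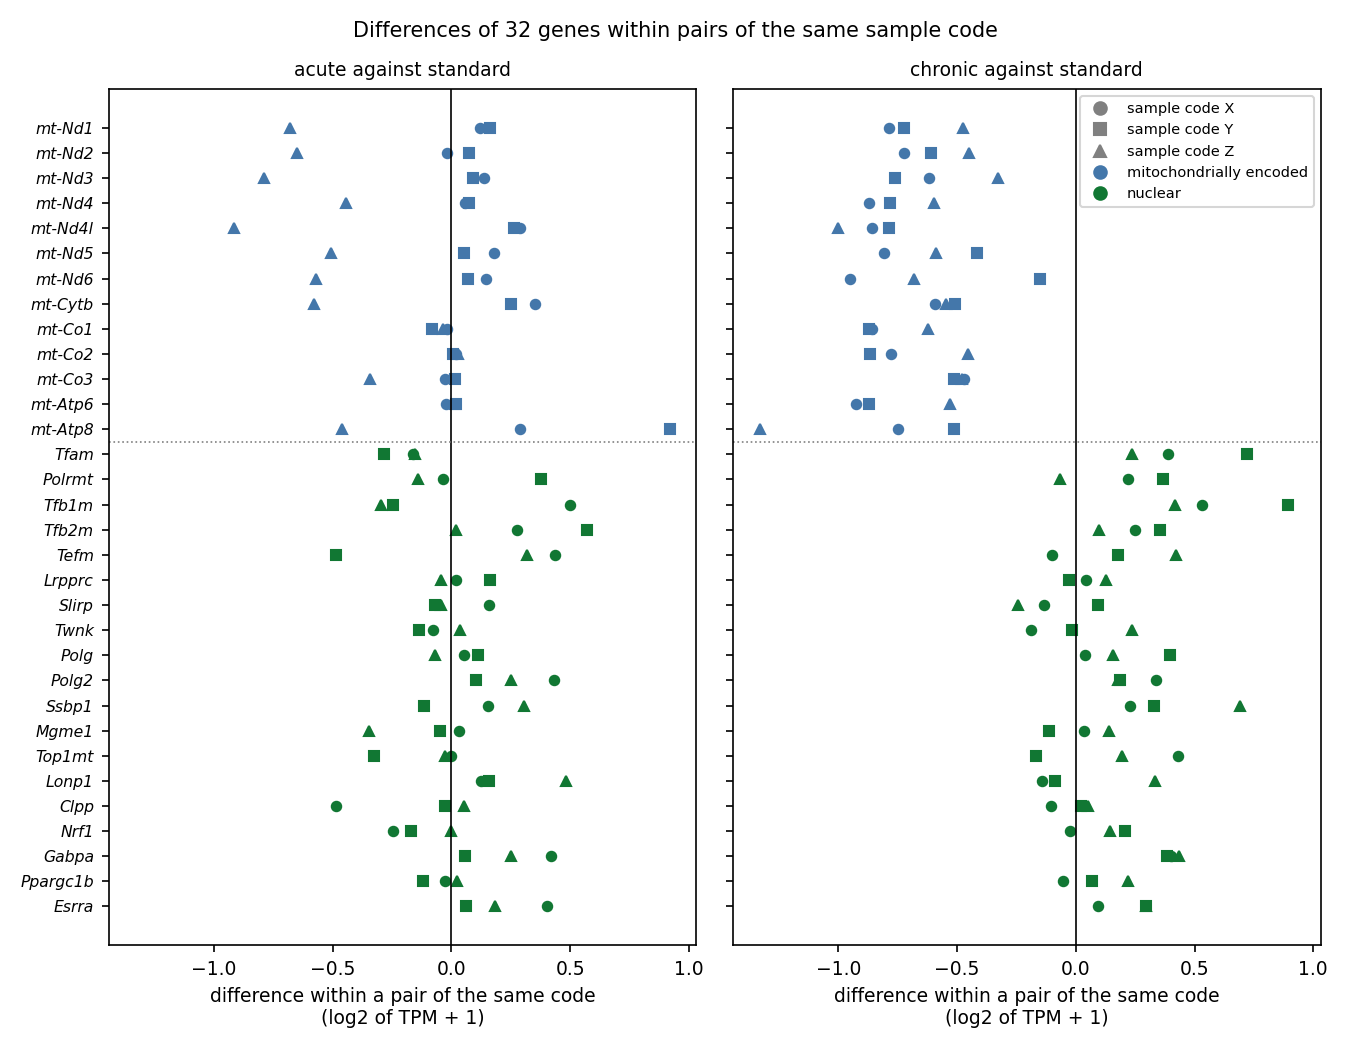
Difference in log2(TPM + 1) within pairs of the same sample code, for the 32 members tested, acute against standard on the left and chronic against standard on the right (circle code X, square Y, triangle Z; blue mitochondrially encoded, green nuclear). All blue points on the right are below 0, while on the left the triangles of the complex I genes and mt-Cytb lie between -0.92 and -0.44 and their circles and squares between -0.02 and 0.35.

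The tables divided signal between mt-Nd3 and its copy, and between mt-Co1 and its copy. Gm28438 was at 374, 251 and 551 TPM in standard oxygen, at 428, 483 and 296 TPM in acute hypoxia and at 316, 366 and 416 TPM in chronic hypoxia. The copy thus stood at 392 ± 151, 402 ± 96.1 and 366 ± 49.8 TPM (SD, n = 3), and the groups overlapped, whereas mt-Nd3 itself was lower in chronic hypoxia. With copy and gene added by length, Gm28438 held 37.8% ± 8.02 of the sum in standard oxygen, 42.0% ± 1.78 in acute and 46.6% ± 3.53 in chronic hypoxia (SD, n = 3). Which of the reads came from the copy is not known, since 97.8% of the 75-base stretches of mt-Nd3 also occur in Gm28438. Gm29216 was at 9816.5, 6974 and 8807 TPM in standard oxygen, at 9052, 6632 and 8517 TPM in acute hypoxia and at 5892, 4131 and 4935 TPM in chronic hypoxia. It was lower in chronic hypoxia in every code, as mt-Co1 was, and held 16.0% ± 1.74, 15.7% ± 1.18 and 16.2% ± 2.87 of the summed signal (SD, n = 3).

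**Figure D4:**
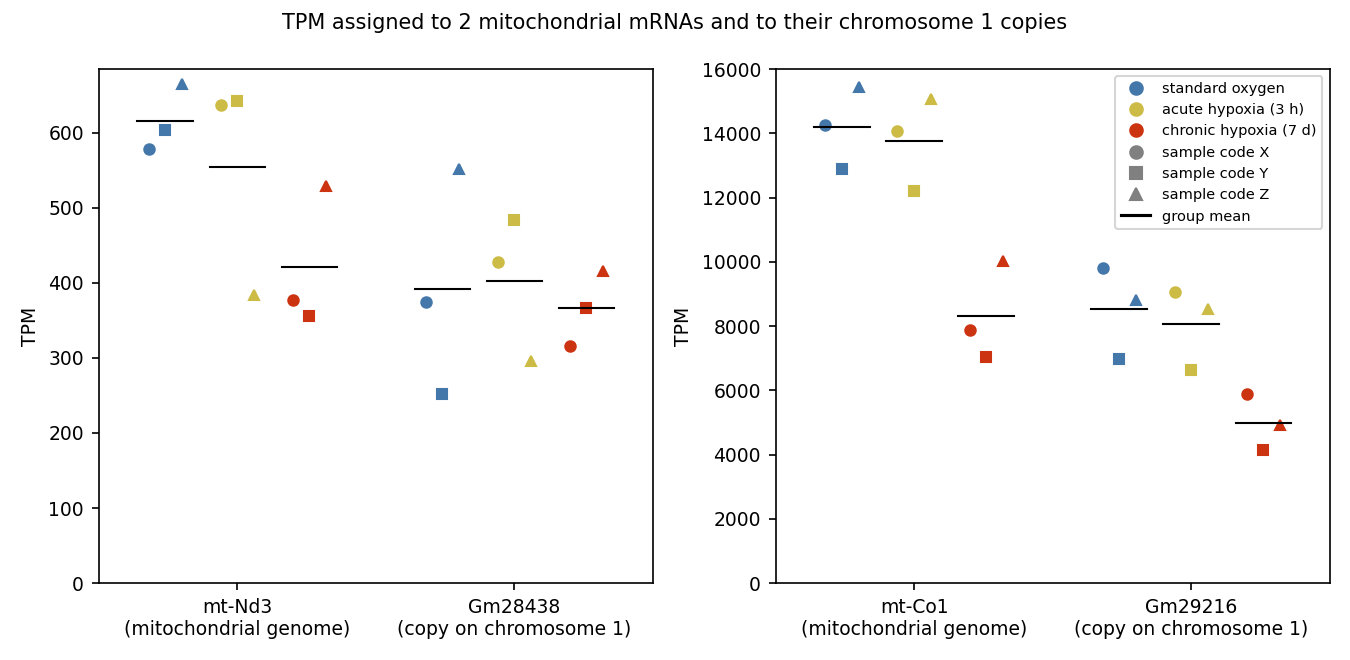
TPM of mt-Nd3 and Gm28438 (left) and of mt-Co1 and Gm29216 (right) in each sample, coloured by oxygen group and shaped by sample code, with group means as lines. The chronic samples are lowest for mt-Co1 and for its copy (4131 to 5892 TPM), while the copy of mt-Nd3 has overlapping groups.

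The copies without a differing base took almost no signal. Gm10222 (mt-Nd4l) was listed at 0 in all 9 samples, Gm28439 (mt-Nd4) in 8 of 9, and Gm28437 (mt-Co3) reached at most 0.104 TPM. The exception was standard code Z, with 470.5 TPM in Gm10925, the copy of mt-Atp6, and 46.8 TPM in Gm28661, the copy of mt-Co2. Next in Gm10925 was acute code X with 31.4 TPM, and the other 7 libraries had at most 4.5 TPM. In standard code Z that is 7.38% of the summed mt-Atp6 signal, on sequences that single 75-base reads cannot separate. Adding all copies to their genes left 0 members called without a block in each comparison, and 0, 14 and 5 with the code block in acute against standard, chronic against standard and chronic against acute. Among the genes, mt-Nd1, mt-Nd6, mt-Cytb and mt-Atp8 shared no 75-base stretch with a listed gene (for mt-Atp8, no listed gene covers the stretch of chromosome 1 between the copies of its neighbours). With partial copies elsewhere, mt-Nd5 shared 1.66% and mt-Nd2 5.71%, the latter past the 5% from which values are called uncertain here. These 6 were lower in chronic hypoxia than in standard oxygen by log2 fold changes of -0.86 to -0.55, the range of the genes with a copy on chromosome 1 being -0.88 to -0.49. The genes with such a copy shared far more than mt-Nd2. They shared 39.8% (mt-Co1), 61.5% (mt-Nd4), 97.8% (mt-Nd3), 98.7% (mt-Nd4l), 99.5% (mt-Co2 and mt-Atp6) and 99.9% (mt-Co3), so by the same rule their values are uncertain.

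The nuclear members stood far lower than the mitochondrial mRNAs, from 1.46 TPM (Ppargc1b) to 46.0 TPM (Esrra) as means over 9 samples, apart from Ppargc1a. Of the 20, 19 were tested. Ppargc1a, a coactivator of mitochondrial biogenesis, was listed above 0 in 3 of 9 samples and reached at most 0.052 TPM. In chronic against standard the median log2 fold change of the 19 was 0.17, beside 0.16 over all genes, and after rescaling 0.0058, with 11 of them positive and 8 negative. Within all 3 pairs 8 of them were higher in chronic than in standard oxygen, but so were 46.9% of all genes. Only Tfb1m and Ssbp1 had no overlap between chronic and standard values (24.2% of all genes were higher without overlap).

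**Figure D5:**
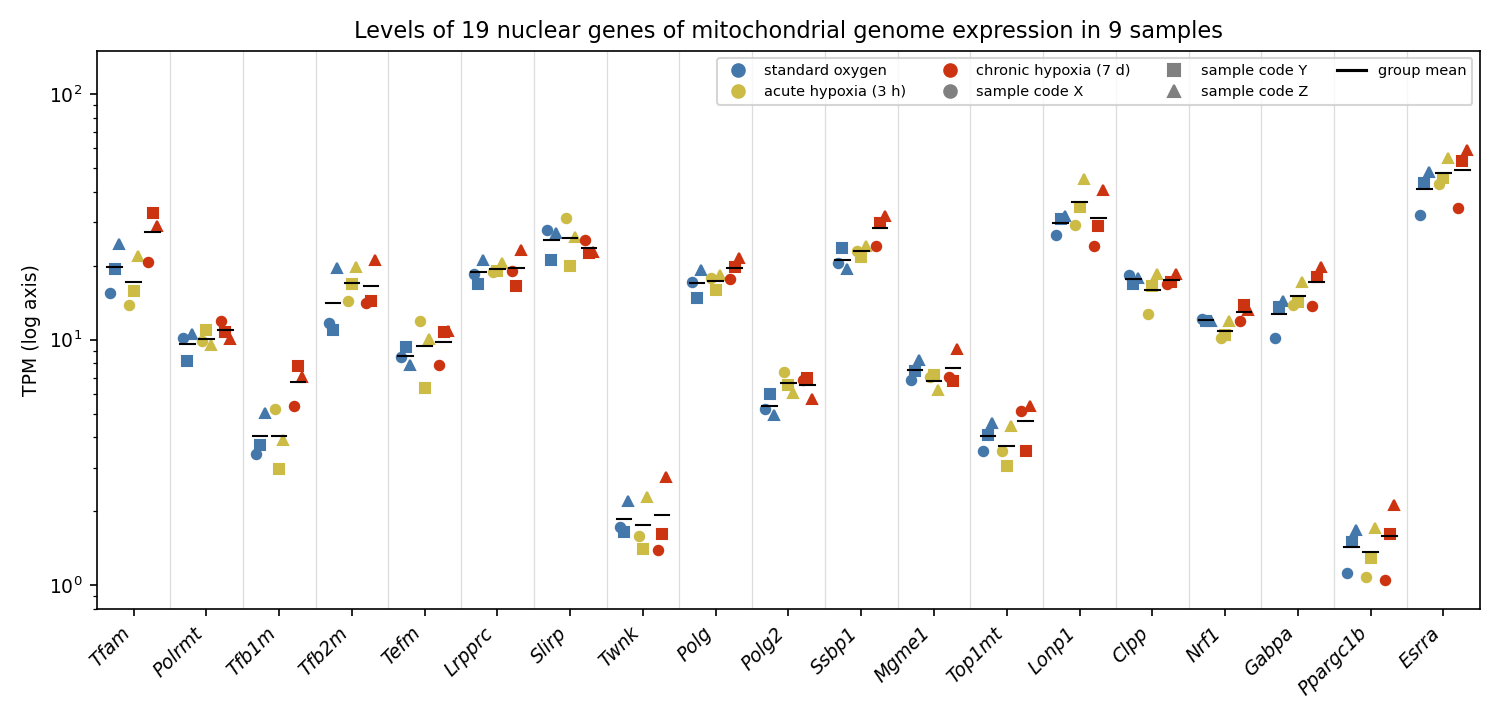
TPM on a log axis of the 19 nuclear members above 1 TPM on average, 1 point per sample, coloured by oxygen group and shaped by sample code, with group means as lines. Red points lie above all others for Tfb1m and Ssbp1, with Tfb1m at 5.38 to 7.78 TPM in chronic hypoxia beside 3.41 to 5.03 TPM in standard oxygen, and most other genes overlap across groups.

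Among the transcription genes, Tfam, which packages the mitochondrial genome and starts its transcription, was at 15.5, 19.4 and 24.6 TPM in standard oxygen. It was at 13.8, 15.8 and 22.0 TPM in acute hypoxia and at 20.7, 32.6 and 29.1 TPM in chronic hypoxia. Chronic was the highest group in every code, while the groups overlapped between codes. The log2 fold change was 0.45 ± 0.22 (SE) against standard, and limma adjusted p was 0.288 unblocked, 0.0589 blocked by code and 0.0344 with that block and all 9 samples. It was 0.29 without the standard code X library. Against acute hypoxia it was 0.65 ± 0.23 (SE), and limma adjusted p was 0.187 unblocked, 0.0386 blocked and 0.0800 blocked and rescaled. Tfb1m, a methyltransferase of the mitochondrial ribosomal RNA, was at 3.41, 3.73 and 5.03 TPM in standard oxygen, at 5.24, 2.99 and 3.91 TPM in acute hypoxia and at 5.38, 7.78 and 7.06 TPM in chronic hypoxia. All chronic values exceeded all others. Its log2 fold change was 0.61 ± 0.20 (SE) against standard, and limma adjusted p was 0.135 unblocked, 0.0466 blocked by code, 0.0724 with that block and all 9 samples, and 0.102 blocked and rescaled. Against acute hypoxia it was 0.63 ± 0.22 (SE), and limma adjusted p was 0.182 unblocked and 0.120 blocked.

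The other transcription genes and the RNA-stabilising genes had overlapping groups in each comparison. Polrmt, the mitochondrial RNA polymerase, was at 9.62 ± 1.29, 10.1 ± 0.719 and 10.9 ± 0.943 TPM in standard, acute and chronic samples (SD, n = 3). Tfb2m, which helps the polymerase open the promoter, was at 14.1 ± 4.79, 17.0 ± 2.76 and 16.5 ± 3.97 TPM (SD, n = 3), and the elongation factor gene Tefm at 8.57 ± 0.730, 9.45 ± 2.81 and 9.82 ± 1.68 TPM (SD, n = 3). Lrpprc and Slirp encode a pair of proteins that bind mitochondrial mRNAs together and stabilise them. Lrpprc was at 18.9 ± 2.16, 19.5 ± 0.936 and 19.6 ± 3.37 TPM, and Slirp at 25.4 ± 3.74, 25.8 ± 5.60 and 23.5 ± 1.56 TPM (SD, n = 3). None of these 5 passed in limma in any comparison, with or without the code block. Slirp shares 91.8% of its 75-base stretches with other listed genes, mostly Snw1, and Tfb2m 37.9% with Gm1818, so their values are uncertain.

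Of the DNA-copying genes, Ssbp1, the single-stranded DNA-binding protein of mitochondria, had the largest difference. It was at 20.5, 23.5 and 19.3 TPM in standard oxygen, at 22.9, 21.7 and 24.1 TPM in acute hypoxia and at 24.1, 29.8 and 31.8 TPM in chronic hypoxia. All chronic values exceeded the others, if by a small margin over acute code Z. The log2 fold change was 0.42 ± 0.14 (SE) against standard and 0.30 ± 0.13 (SE) against acute hypoxia, and limma adjusted p was 0.153 and 0.250 unblocked, then 0.0668 and 0.107 blocked by code. With the block and all 9 samples these were 0.0369 and 0.101. Polg2, the accessory subunit of the mitochondrial DNA polymerase, was at 5.20, 6.03 and 4.93 TPM in standard oxygen and at 7.36, 6.56 and 6.06 TPM in acute hypoxia. It was the single member whose acute values all exceeded the standard ones (7.63% of all genes did), and limma adjusted p was 0.829 unblocked and 0.402 blocked. In chronic hypoxia it was at 6.51 ± 0.698 TPM (SD, n = 3).

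The remaining copying genes had overlapping groups throughout. The catalytic subunit gene Polg was at 17.0 ± 2.25, 17.4 ± 1.22 and 19.6 ± 1.93 TPM in standard, acute and chronic samples (SD, n = 3), and it shares 7.94% of its stretches with Fanci, which makes its values uncertain. Twnk, the replicative helicase, was at 1.86 ± 0.30, 1.76 ± 0.464 and 1.93 ± 0.741 TPM (SD, n = 3). The exonuclease gene Mgme1 was at 7.51 ± 0.697, 6.82 ± 0.495 and 7.67 ± 1.30 TPM, and the topoisomerase gene Top1mt at 4.06 ± 0.516, 3.68 ± 0.718 and 4.67 ± 1.01 TPM (SD, n = 3). None of these 4 passed in limma in any comparison. The matrix proteases were no different in this. Lonp1, which degrades unbound Tfam protein among other targets, was at 29.9 ± 2.78, 36.4 ± 8.06 and 31.2 ± 8.39 TPM, and Clpp at 17.6 ± 0.731, 15.9 ± 2.93 and 17.5 ± 0.867 TPM (SD, n = 3). Lonp1 was lower in chronic than in acute hypoxia in each code, and passed with block and rescaling together (limma adjusted p 0.0434), not with the block alone (0.104).

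The nuclear regulators switch on genes of the respiratory chain and of the machinery above. Gabpa, the DNA-binding subunit of an ETS-family factor, was at 10.1, 13.6 and 14.3 TPM in standard oxygen, at 13.9, 14.2 and 17.2 TPM in acute hypoxia and at 13.7, 18.0 and 19.7 TPM in chronic hypoxia. Between codes the groups overlapped, but within codes chronic exceeded standard by 0.40, 0.38 and 0.43 on the log2 scale. The log2 fold change was 0.41 ± 0.19 (SE), and limma adjusted p was 0.255 unblocked, 0.0322 blocked by code and 0.125 blocked and rescaled. Leaving out the standard code X library gave 0.26. Nrf1, a factor that binds many promoters of respiratory genes, was at 12.0 ± 0.178, 10.8 ± 0.950 and 13.01 ± 0.960 TPM (SD, n = 3). With Tfb1m and Ssbp1 it was one of 3 members whose chronic values all exceeded the acute ones (22.3% of all genes did), and one of 5 that were higher in all 3 pairs (43.5% of all genes), but it did not pass in limma with the code block (adjusted p 0.148). Esrra, an orphan nuclear receptor, was at 41.2 ± 8.20, 47.7 ± 6.32 and 49.0 ± 13.01 TPM, and Ppargc1b, a coactivator related to Ppargc1a, at 1.43 ± 0.282, 1.36 ± 0.323 and 1.59 ± 0.535 TPM (SD, n = 3). Neither passed in any comparison.

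Since Gabpa and Tfam were both higher in chronic hypoxia with the code block in at least 1 comparison, the promoters of the nuclear members were searched for the Gabpa core motif CCGGAAGT on both strands. RefSeq promoters on GRCm38.p6 matched 18 of the 20. The motif occurred in 4 of the 18 genes, which had 20 promoters, and in 3.89% of all 32851 promoters of the same length, a rate by promoter and not by gene. The 4 are shown on the gene's strand with the motif in capitals, in either orientation, for Tfam (chr10:71238069-71238106, minus strand), Polg (chr7:79466289-79466326, minus), Tefm (chr11:80142140-80142177, minus) and Twnk (chr19:45006432-45006469, plus).
Tfam: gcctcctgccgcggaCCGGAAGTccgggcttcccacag
Polg: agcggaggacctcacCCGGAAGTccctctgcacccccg
Tefm: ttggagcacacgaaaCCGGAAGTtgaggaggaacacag
Twnk: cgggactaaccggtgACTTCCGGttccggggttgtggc

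Relative to the gene start of the RefSeq promoter, the motif began at -47 in Tfam, -38 in Polg, -9 in Tefm and -111 in Twnk. GENCODE M21 starts these genes further upstream, at chr10:71238280 (Tfam), chr7:79466362 (Polg), chr11:80142175 (Tefm) and chr19:45005663 (Twnk). By those starts each of the motifs lies inside its gene. Of these genes, Tfam alone passed a test, and Tfb1m, which passed in chronic against standard, had no match, which says only that these letters are not in its window. A motif of Nrf1 occurred in Polrmt alone and in 4.60% of all promoters. The Esrra motif TCAAGGTCA occurred in none and in 0.423% of all promoters. The core of the hypoxia-response element, searched as GACGTG, occurred in Mgme1, Polg2 and Ppargc1a and in 6.38% of all promoters. In each search the members were counted by gene and the background by promoter, so the rates are not alike. A match describes the letters of the window and shows no binding.

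Few other genes that serve the mitochondrial genome passed the test. Of 90 genes of the mitochondrial ribosome and translation, which turn the 13 mRNAs into protein, 0 passed in chronic against standard in limma without a block, with 8 at p under 0.05 before adjustment. Such a p was reached by 2533 of all 11067 genes tested. Blocked by code, 5 of the 90 were higher and 3 lower, where 15.1% and 3.3% of all genes were. With rescaling as well 0 were higher and 7 lower (5.53% and 5.92% of all genes), so the direction of this count depends on the scale. Their median log2 fold change was 0.05, beside 0.16 over all genes. Mrps23, a small-subunit protein gene, was at 31.4, 34.4 and 43.9 TPM in standard oxygen and at 42.6, 49.4 and 69.6 TPM in chronic hypoxia. It differed by a log2 fold change of 0.53 ± 0.21 (SE), and limma adjusted p was 0.204 unblocked, 0.0195 blocked by code and 0.0555 blocked and rescaled. Mrpl38, of the large subunit, was at 20.8, 31.4 and 25.3 TPM and at 16.3, 18.9 and 20.0 TPM. It differed by a log2 fold change of -0.46 ± 0.17 (SE), and limma adjusted p was 0.181, 0.0480 and 0.0335 for those fits.

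Among 31 genes of mitochondrial RNA processing and decay, 0 passed without a block in chronic against standard. Unadjusted p in limma was under 0.05 for 2 of them, and for 2533 of all 11067 genes. With the code block 1 was higher and 1 lower (15.1% and 3.3% of all genes). Mrm1, which methylates the mitochondrial ribosomal RNA, was at 4.26, 4.65 and 6.17 TPM in standard oxygen and at 7.58, 7.47 and 12.8 TPM in chronic hypoxia. Its log2 fold change was 0.74 ± 0.24 (SE), and limma adjusted p was 0.136 unblocked, 0.0231 blocked by code and 0.0468 blocked and rescaled. Trmt10c, a subunit of the enzyme that cuts tRNAs out of the mitochondrial precursor, was at 11.6, 11.9 and 10.7 TPM in standard oxygen and at 9.26, 7.79 and 7.62 TPM in chronic hypoxia. Chronic values lay below all standard values. Its change on the log2 scale was -0.43 ± 0.13 (SE), and limma adjusted p was 0.117, 0.0477 and 0.0313 for those fits. The median of this list was 0.03.

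Of 21 tested genes of mitochondrial DNA upkeep and nucleotide supply, 0 passed without a block in chronic against standard. Before adjustment 3 had p under 0.05 in limma, as did 2533 of all 11067 genes. Blocked by code, 3 of the 21 were higher, Dguok, Dna2 and Rrm2b, a share near the 15.1% of all genes. With rescaling none of these passed and 2 others, Slc25a33 and Sucla2, were lower (5.92% of all genes). Dguok, a kinase that supplies purine nucleotides to mitochondria, was at 23.2, 23.0 and 25.4 TPM in standard oxygen and at 30.8, 29.5 and 31.1 TPM in chronic hypoxia. It differed by a log2 fold change of 0.34 ± 0.10 (SE), and limma adjusted p was 0.110 unblocked and 0.0388 blocked by code. Dna2, a nuclease and helicase of nucleus and mitochondria, was at 5.005, 4.25 and 6.49 TPM and at 7.16, 6.11 and 12.9 TPM. Its change on the log2 scale was 0.59 ± 0.28 (SE), and limma adjusted p was 0.269 unblocked and 0.0480 blocked.

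In 16 genes of mitochondrial chaperones and proteases, 1 passed without a block in chronic against standard, where 2.69% of all genes did. Afg3l2, a subunit of the inner-membrane protease that also helps assemble the mitochondrial ribosome, rose from 62.1 ± 1.67 to 94.2 ± 1.71 TPM (SD, n = 3), and its acute values were 68.4, 76.3 and 105.6 TPM. Its log2 fold change in chronic against standard was 0.59 ± 0.08 (SE), and limma adjusted p was 0.0286 unblocked, 0.0119 blocked by code and 0.0249 blocked and rescaled. Of 15 tested transcription factors and coregulators outside the members, 1 passed without a block, Pparg, a lipid-activated nuclear receptor. Standard samples held it at 34.1 ± 0.412 TPM and it fell to 14.2 ± 2.44 TPM in the chronic ones (SD, n = 3). The log2 fold change was -1.22 ± 0.14 (SE), and limma adjusted p was 0.0146, 0.00921 and 0.00855 for those fits. With the code block, Creb1, Hcfc1 and Esrrg were higher as well (15.1% of all genes were), Esrrg from 0.528 ± 0.463 to 2.39 ± 0.0843 TPM (SD, n = 3, limma adjusted p 0.0428), and none of these passed with rescaling. In acute against standard, 0 genes of these 5 lists passed with or without the block, with 1 to 2 per list at an unadjusted p under 0.05 without it (785 of all 10987 genes). In chronic against acute 0 passed without the block, with 0 to 6 per list at an unadjusted p under 0.05 (2305 of all 11087 genes). With the block, Dguok, Htra2, Esrrg and 4 genes of the ribosome and translation list were higher there and Immp2l was lower (12.1% and 3.42% of all genes). With block and rescaling, Esrrg alone was higher (523 of all 11087 genes were). Lower in that fit were Sucla2, Hspa9, Immp2l, Mrpl30, Mrps15 and Mrps7 (5.06% of all genes).

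The sum of 6 neutrophil markers was 2.41 to 4.72, 3.48 to 4.76 and 1.76 to 2.93 TPM in the 3 groups, with Ly6g, Mpo and Elane under 1 TPM in all samples. The ribosomal RNA and transfer RNA genes of the mitochondrial genome were not analysed here.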

How the data were processed

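Values are TPM as the authors deposited them, in 3 tables that each hold the 6 samples of 2 groups, and every sample had identical values in both tables that held it. Libraries were mRNA libraries sequenced as paired ends of 75 bases, per the labels' protocols. FastQC, STAR, featureCounts and the build GRCm38 are named per the submitters' processing notes, and the annotation, the strand setting, the step to TPM and the treatment of reads that fit several genes are not given in the sources used here. Each column summed to 1000000 TPM, so library depth is unknown.

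Each comparison was fitted on its 6 samples with limma 3.58.1 in R 4.3.3 (lmFit, eBayes with trend, two-sided) on log2(TPM + 1), over genes whose TPM averaged 1 or more, with Benjamini-Hochberg adjustment over all genes tested and a threshold of 0.05. Only the fit without a block was checked on simulated data. Those data had independent noise and no sample code, so the check does not cover the fits with a block. Fold changes on this scale understate those of genes near 1 TPM. The alternatives were other pseudocounts (0.1, 5) and filters, median-of-ratios rescaling, TPM recomputed outside the mitochondrial genome, all 9 samples in 1 fit, eBayes without trend, blocks by title number or sample code, and leaving out each replicate. Added after seeing the data were fits with the nuclear copies added, the code block with all 9 samples, and fits without code Z.

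The pairing by sample code comes from the digits shared in the descriptions. Deviations from group means correlated over genes above 0.1 in all 9 same-code pairs (mean r 0.475). Code X was replicate 1 throughout, code Y replicate 3 of standard and 2 of the others, and code Z replicate 2 of standard and 3 of the others.

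Symbols, positions and transcripts came from GENCODE M21 (34582 of 34866 identifiers matched). Sequence sharing is the percent of a gene's 75-base stretches, in its longest transcript, that occur in another listed gene on either strand, and 5% or more was called uncertain. All members are described, with fold change, SE and adjusted p where the log2 fold change was at least 0.3 in size or a call was made without or with the code block. The SE is that of the fit without a block, also where an adjusted p with the block stands beside it. From each other list, the highest and lowest called gene in chronic against standard are described. Members and lists were chosen with earlier results of these data known.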

Additional observations from a re-analysis of the deposited data

How the results depend on the processing

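No member was called in acute against standard under any alternative, and none of the differences in mitochondrial mRNA share moved by more than the replicate spread. Leaving out each replicate in turn gave -0.508 to 0.132 percentage points in acute against standard, -2.29 to -1.65 in chronic against standard and -2.12 to -1.53 in chronic against acute. For chronic against standard, 0 members were called as reported, 3 with median-of-ratios rescaling, 4 with all 9 samples in 1 fit, 14 with the replicate block by sample code, 13 with that block and rescaling, 14 with the block and the copies added, 12 with the block and all 9 samples, and 10 without the code Z libraries. Over all genes the calls were 298, 233, 770, 2039, 1267, 2039, 2916 and 2300 in the same order, of 11067 tested (10924 without code Z). Leaving out 1 replicate gave 0 to 7 members, the 7 without chronic replicate 3, which is the code Z library. In that fit 476 of all 11006 genes were called. For chronic against acute the member counts were 0 as reported, 2 with all 9 samples, 5 with the code block, 6 with block and rescaling, 5 with block and copies, 7 with block and all 9 samples, 11 without code Z, and 0 to 4 without 1 replicate, the 4 again without chronic replicate 3. Over all genes the calls were 77, 417, 1724, 1084, 1726, 2464 and 1788, of 11087 tested (10952 without code Z). Without chronic replicate 3 they were 308 of 11047. The replicate block by title number gave 0, 0 and 5 members in acute against standard, chronic against standard and chronic against acute, beside 0, 1 and 1724 of all genes. Samples of the same title number correlated above 0.1 in 5 of 9 pairs (mean r 0.094), and title and code pair acute and chronic samples identically. The cause of these differences was not tested. The 33 fold changes given for single members kept their direction in all 693 alternatives run, and 121 of these brought a member past the threshold. Other filters, a block alone, eBayes without trend and all 9 samples in 1 fit leave a fold change as it is. Those alternatives could not turn a direction, and the 33 had been picked from these data by size or by a call. The share with the mitochondrial ribosomal and transfer RNA genes added was not run. The unknown depth limits what can be said of genes near 1 TPM, such as Twnk and Ppargc1b.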

Other observations

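In genes outside the members, some acute hypoxia values stood near the chronic ones, although no gene of the 5 other lists passed in acute against standard. Pparg was at 34.5, 33.9 and 33.8 TPM in standard oxygen (codes X, Y and Z), at 12.8, 12.5 and 18.7 TPM in acute hypoxia and at 16.9, 12.2 and 13.6 TPM in chronic hypoxia, so the standard values lay above all others. Trmt10c was at 8.11, 8.71 and 9.54 TPM in acute hypoxia, also below its 3 standard values of 11.6, 11.9 and 10.7 TPM. Mrm1 was at 9.66, 9.23 and 5.84 TPM in acute hypoxia, with code Z below its standard value of 6.17 TPM and the other codes above theirs. Dguok was at 24.0, 19.03 and 18.3 TPM in acute hypoxia beside 23.2, 23.0 and 25.4 TPM in standard oxygen, lower in codes Y and Z and slightly higher in code X. Esrrg, at 0 to 0.864 TPM in the standard and acute libraries, was at 2.30 to 2.47 TPM in the chronic ones.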
